A study of Eurytemora affinis with 15 samples.

Results

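In RNA of whole males of the copepod Eurytemora affinis, 59 genes had a lower normalised read count in each of 12 libraries from animals held in sediment elutriate than in any of 3 libraries from animals held in water. They are 0.312% of the 18921 genes that reached a value of 10 or more in 3 or more libraries, out of 23728 genes in the deposited table. The members were chosen by that difference itself: the highest value among the 12 exposed libraries had to be below the lowest of the 3 control libraries. The distance between exposed and control libraries is therefore given as a description, without a test, and tests are given for differences among the 4 exposed groups. The opposite condition, a value above every control in all 12 exposed libraries, was met by 71 genes (0.375%).

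Adult copepods from the Seine estuary were acclimatised at 15 psu and 15 °C and then held for 72 h in water only (Control) or in elutriate, the water phase obtained by mixing sediment with water. Elutriates came from sediment of 2 sites, Fatouville and Tancarville, each at 350 and at 2500 mg/L. Each of the 5 groups had 3 libraries, and each library was made from 200 ng of total RNA from a pool of 30 males, so that values are averages over animals and describe males alone. Values are read counts per gene divided by a size factor per library and are not corrected for gene length, so levels are compared between libraries and not between genes.

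Eurytemora affinis is a calanoid copepod of the brackish reaches of temperate estuaries, where it often dominates the zooplankton and feeds fish larvae and mysid shrimps. Estuarine sediments bind metals and hydrophobic organic compounds, which tides and dredging can bring back into the water column. Elutriates are a standard way to expose pelagic animals to that release. All 59 members have LOC identifiers, which the deposited table does not pair with gene names, and no functions are given here. Since whole animals were extracted, fewer cells of a type and less RNA per cell cannot be told apart.

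The libraries held from 13.64 to 17.213 M reads in genes. Distances from the group centre were taken on the log2 scale over all tested genes, and 3 libraries were chosen, after the data were seen, as standing apart. These were Control 3 (distance 67.6), replicate 2 of Fatouville 350 mg/L (73.8) and replicate 3 of Tancarville 2500 mg/L (79.96), each the farthest in its group. The choice had no clear edge, since replicate 1 of Tancarville 2500 mg/L (72.3) and replicate 1 of Tancarville 350 mg/L (67.1) lay about as far and were kept. The median tested gene differed little from the control mean in any library, with library medians from -0.02 to 0.02 on the log2 scale. Together the members took 0.282% to 0.306% of the reads in the control libraries and 0.197% to 0.234% in the exposed libraries.

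LOC111712699 had the widest gap. Its normalised counts were 3348, 3434 and 3044 in Control, 759, 1240.1 and 1371 at Fatouville 350 mg/L, and 664, 439 and 590.0 at Fatouville 2500 mg/L. They were 556, 591 and 576 at Tancarville 350 mg/L and 1256, 589 and 700.0 at Tancarville 2500 mg/L. The lowest control was 2.22 times the highest exposed value, and the control mean was 4.21 times the mean of the 12 exposed libraries. Group means were 3275 ± 205 in Control (SD, n = 3 in each group), 1123 ± 322 and 564 ± 115 at Fatouville 350 and 2500 mg/L, and 574 ± 17.9 and 848 ± 357 at Tancarville 350 and 2500 mg/L. The order of the concentrations was thus opposite at the sites, with the lower mean at 2500 mg/L for Fatouville and at 350 mg/L for Tancarville.

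LOC111717563 followed, with a lowest control 1.82 times the highest exposed value. Its normalised counts were 300.3, 375 and 335 in Control, 75.9, 165 and 149 at Fatouville 350 mg/L and 107, 58.3 and 76.4 at Fatouville 2500 mg/L. At Tancarville they were 51.2, 78.6 and 77.7 at 350 mg/L and 153, 61.9 and 104 at 2500 mg/L. The exposed groups overlapped one another, and the mean of the controls was 3.49 times that of the exposed libraries. LOC111717563 and LOC111712699 were both highest among exposed libraries in Fatouville 350 mg/L replicates 2 and 3 and in Tancarville 2500 mg/L replicate 1.

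LOC111712470 was at 1336, 1489 and 1549 normalised counts in Control, against 689, 892 and 878 at Fatouville 350 mg/L and 559.9, 489 and 618 at Fatouville 2500 mg/L. It was at 729, 711 and 608 at Tancarville 350 mg/L and at 742, 539 and 708 at Tancarville 2500 mg/L. The lowest control was 1.498 times the highest exposed value and the control mean 2.14 times the exposed mean. All 3 Fatouville 2500 mg/L libraries were below all 3 at 350 mg/L, while the Tancarville groups overlapped. LOC111712343 was at 684, 771 and 923 in Control and from 299 to 493 in the exposed libraries, with a median of 386. Its control mean was 2.10 times its exposed mean, and the exposed groups overlapped in each comparison of sites or concentrations.

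**Figure D1:**
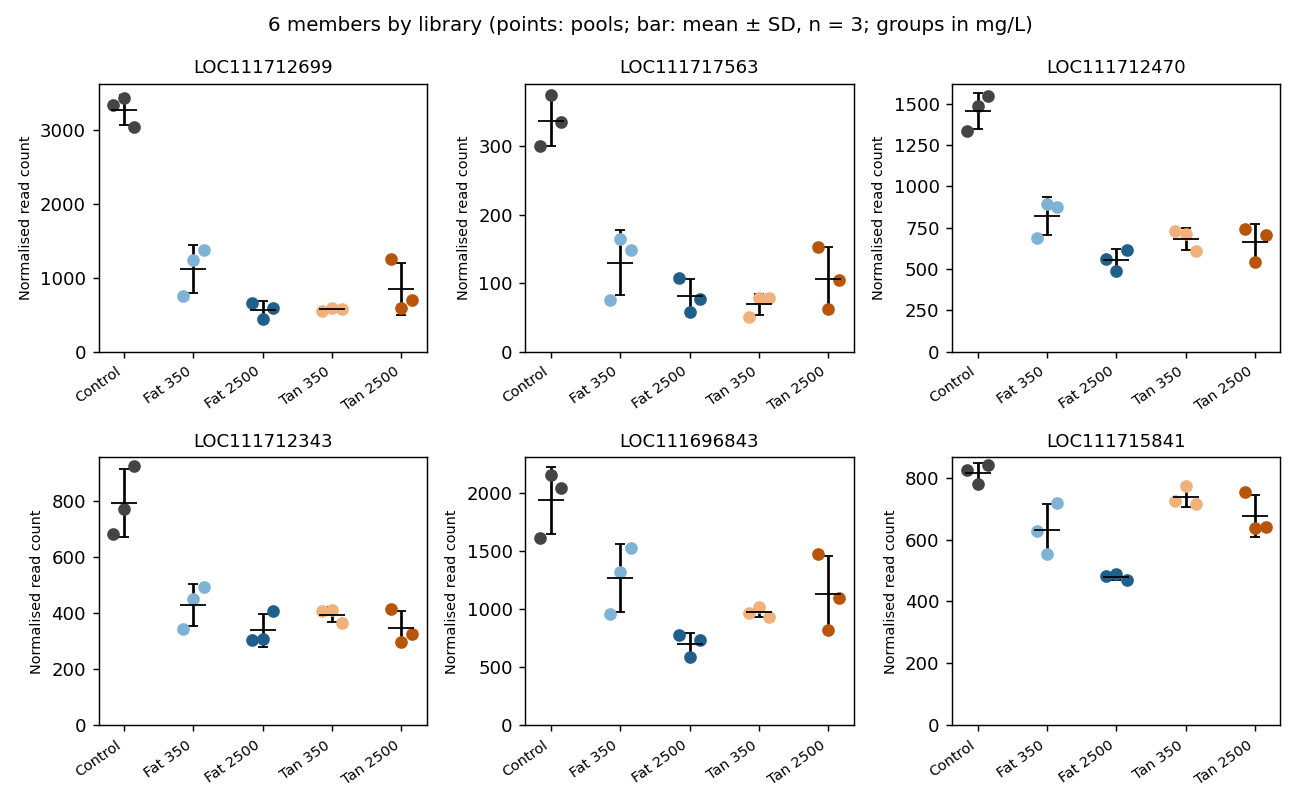
Normalised read counts (vertical axes, from 0) of 6 members in the 5 groups (horizontal axes, Fat for Fatouville and Tan for Tancarville, in mg/L). Points are libraries, and bars give the mean and SD of 3 libraries. For LOC111712699 the controls lie between 3044 and 3434 and the exposed libraries between 439 and 1371; for LOC111715841 the Fatouville 2500 mg/L libraries lie together at 470.1 to 489.

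Beyond these, the gaps were small. The ratio of the lowest control to the highest exposed value ran from 1.0002 to 2.22 over the 59 members, with a median of 1.022. The lowest control exceeded the highest exposed value by at least 5% in 18 members, by at least 10% in 10, by at least 20% in 5 and by at least 100% in 1, and by less than 2% in 28. For 9 members the gap was less than 1 normalised count. The 95% exact counting intervals of the lowest control and the highest exposed library did not overlap for 5 members, the 4 above and LOC111696545, which is named after its values were seen. Such intervals cover counting error only.

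The condition had no natural edge in these data. LOC111703928, just inside it, had a lowest control of 420.7 and a highest exposed value of 420.6. LOC111697079, just outside, had a lowest control of 1562.6 and a highest exposed value of 1562.8. In all, 35 tested genes that are not members, LOC111697079 included, had a ratio of at least 0.98. Another 5 genes met the order of exposed below control but had too few reads for the filter, with no control above 10.4.

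**Figure D2:**
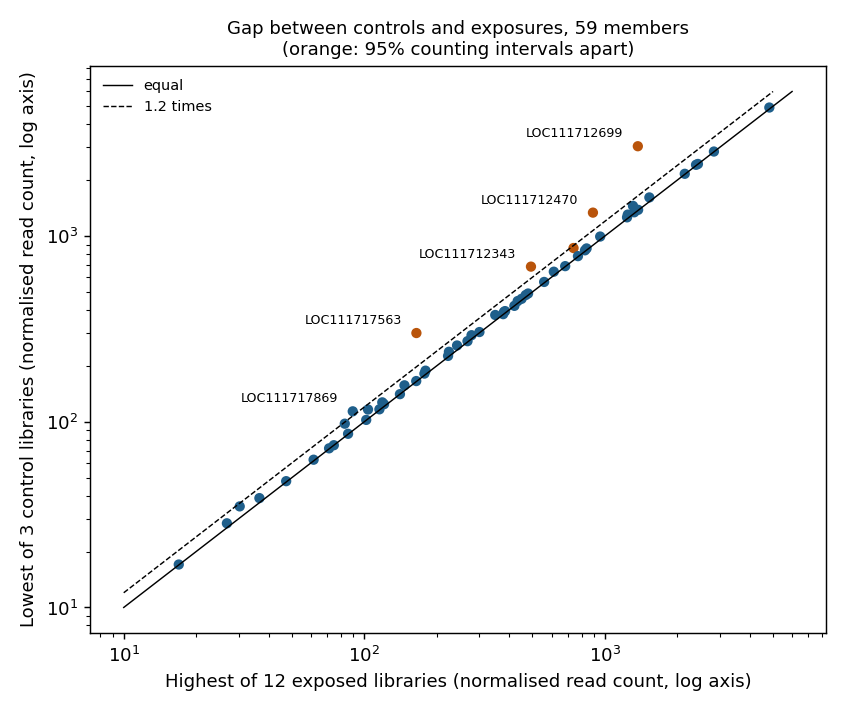
Lowest of the 3 control libraries (vertical) against the highest of the 12 exposed libraries (horizontal) for the 59 members, in normalised read counts on log axes. Lines mark equal values and a ratio of 1.2, orange points are the 5 members whose 95% counting intervals did not overlap, and most members lie close to the line of equal values (median ratio 1.022).

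Differences of means were larger than the gaps. The control mean was 1.11 to 4.21 times the exposed mean, with a median of 1.29, and it was at least 1.5 times in 13 members, at least 2 times in 6 and at least 3 times in 4. The log2 difference between the mean of the exposed groups and Control ran from -2.17 to -0.15, with a median of -0.39. By group, the median log2 difference from Control over members was -0.39 for Fatouville at 350 mg/L and -0.49 at 2500 mg/L, and for Tancarville it was -0.36 and -0.37. These 4 values share their control libraries.

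For 2 members with large ratios of means, named after their values were seen, 1 control library set the ratio. LOC111717869 was at 491 in Control 1 but at 114 and 132 in Control 2 and 3, and at 45.6 to 89.5 in the exposed libraries, with a median of 70.0. Its control mean was 3.51 times the exposed mean with Control 1 and 1.75 times without it. LOC111708526 was at 1184, 443 and 376 in Control and at 130.2 to 350.2 in the exposed libraries, with a median of 209, and its ratio of means went from 3.13 to 1.92 without Control 1. In the other 57 members the highest control was less than 2 times the lowest.

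Controls were tight in most members, as the choice of members favours. The coefficient of variation over the 3 controls had a median of 5.30% in members and 13.0% in all tested genes, and over the 12 exposed libraries 12.7% against 18.6%. LOC111695601, the member with the highest normalised counts in Control before any correction for length, was at 4934, 4951 and 4918 in Control and at 3871 to 4826 in the exposed libraries, with a median of 4487. Its control mean was only 1.11 times its exposed mean, and the lowest control was 1.019 times the highest exposed value. Of the 59 members, 58 were at 10 or more in all 15 libraries.

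**Figure D3:**
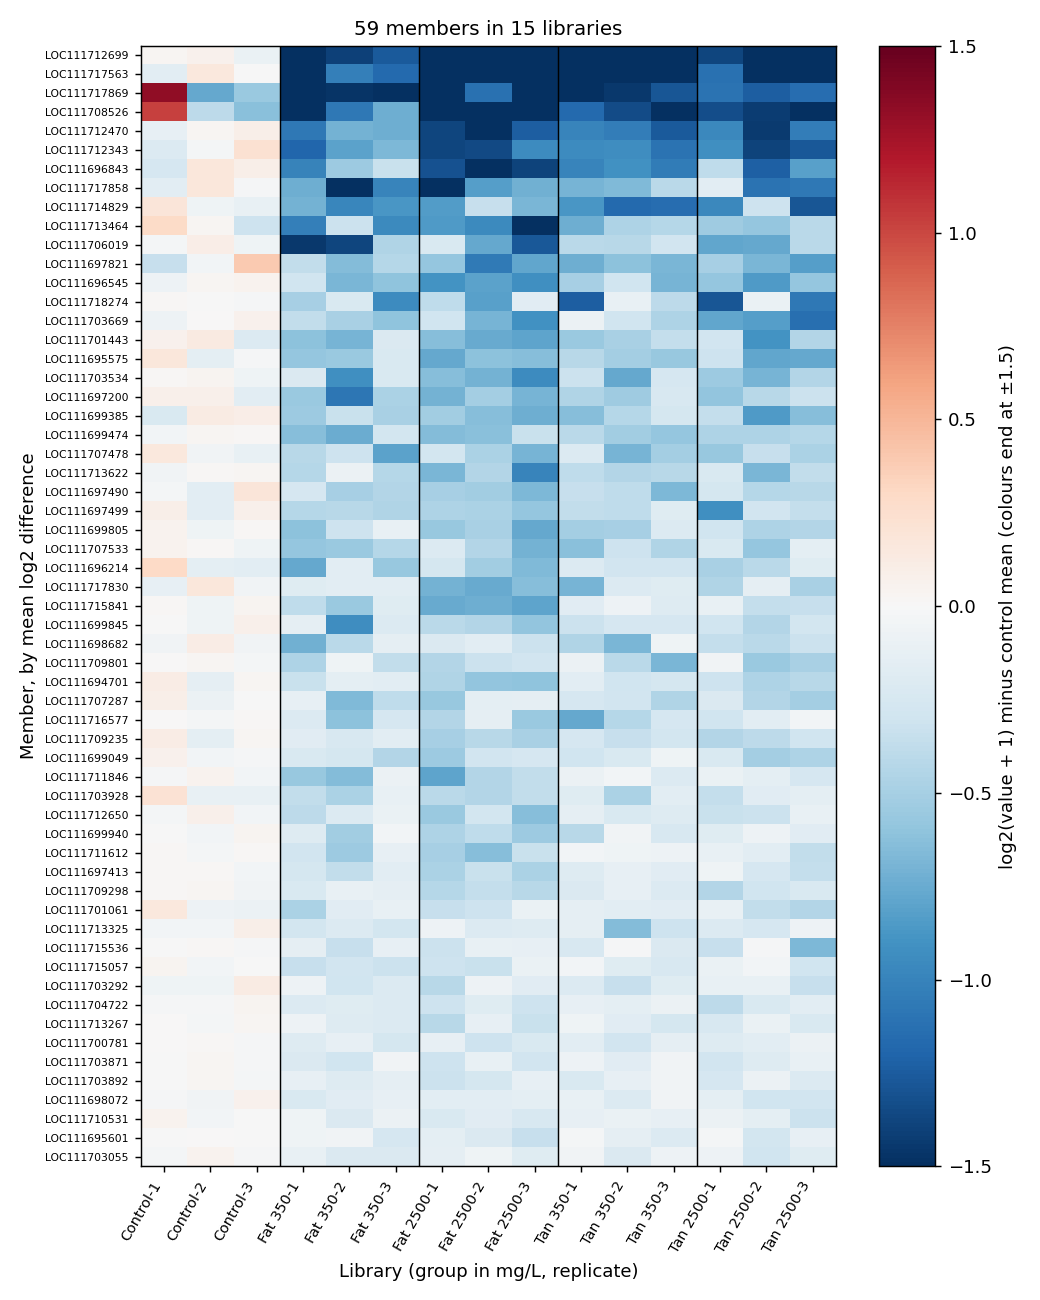
Difference of log2(value + 1) from the control mean (colour, ends at ±1.5) for the 59 members (rows, ordered by the mean log2 difference) in the 15 libraries (columns, Fat for Fatouville and Tan for Tancarville, in mg/L). LOC111717869 and LOC111708526 are high in Control 1 alone among the controls, and the median over rows of the mean difference of the exposed groups from Control is -0.39.

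Among the exposed groups, members were most often lowest at Fatouville 2500 mg/L. That group had the lowest mean of the 4 in 35 of 59 members (59.3%), against 35.3% of all tested genes. It had the highest mean in 5 members (8.5%), against 35.5% of all tested genes. Tancarville 350 mg/L had the highest mean in 26 members (44.1%), against 24.2% of all tested genes. The median member difference from the control mean was -0.50 ± 0.08 on the log2 scale over the 3 Fatouville 2500 mg/L libraries (SD), and -0.35 ± 0.07 at Fatouville 350 mg/L. It was -0.31 ± 0.04 and -0.37 ± 0.05 at Tancarville 350 and 2500 mg/L. The lowest of these library medians, -0.60, was that of Fatouville 2500 mg/L replicate 3, and the 3 libraries of that group lay below the other 9. Because the rule bounds the highest exposed value, it leaves out genes raised to a control level in any exposed group. Over all tested genes, Fatouville 2500 mg/L was the group most often highest (35.5%). The shares of all tested genes are therefore no independent baseline for how often a group was lowest or highest in members.

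The concentrations of Fatouville elutriate were compared to ask whether members moved with dose. By limma with Benjamini-Hochberg adjustment over 18921 genes, 1 gene was called (0.00529%), and it was not a member. At an unadjusted limma p below 0.05, 12 members were lower at 2500 than at 350 mg/L and 0 were higher, where 19.8% of all tested genes passed and 7.75% were lower. In 13 members all 3 libraries at 2500 mg/L were below all 3 at 350 mg/L and in 1 member above, against 8.88% and 12.04% of all tested genes. The median log2 difference was -0.09 over members and -0.01 over all tested genes. The rule leaves out genes raised to a control level in any exposed library. The direction of member differences is therefore not independent of it, here and in the comparisons of exposed groups below. edgeR's quasi-likelihood test called 0 members, and DESeq2 called 6 members among 1066 genes (5.63%).

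The smallest p of a member in that comparison belonged to LOC111696843. It was at 1613, 2156 and 2048 normalised counts in Control, 956, 1321 and 1531 at Fatouville 350 mg/L and 775, 588 and 736 at Fatouville 2500 mg/L. At Tancarville it was at 968, 1022 and 932 at 350 mg/L and at 1476, 823 and 1096 at 2500 mg/L. The Fatouville groups did not overlap, and their log2 difference was -0.84 (SE 0.20, limma adjusted p = 0.0640). Over 26 alternative settings its adjusted p ran from 0.00323 to 0.204, and it passed in 2 of them, DESeq2 among these. LOC111712470 differed by -0.56 (SE 0.14, limma adjusted p = 0.0648) and LOC111712699 by -0.97 (SE 0.27, limma adjusted p = 0.0907) between the same groups. LOC111717830, named after its values were seen, was at 217, 219 and 219 at Fatouville 350 mg/L and at 150.2, 145 and 157 at 2500 mg/L, a log2 difference of -0.53 (SE 0.15, limma adjusted p = 0.0834).

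The concentrations of Tancarville elutriate differed less clearly in members. limma and edgeR called 0 genes (0%), and DESeq2 called 3 genes (0.0159%) and 0 members. At an unadjusted limma p below 0.05, 1 member was lower at 2500 mg/L and 0 were higher, where 5.74% of all tested genes passed and 2.93% were lower. That member was LOC111703669, at 47.9, 50.7 and 53.0 in Control, 47.3, 40.8 and 36.4 at 350 mg/L and 29.1, 28.0 and 22.5 at 2500 mg/L. The Tancarville groups did not overlap, and the log2 difference was -0.63 (SE 0.22, limma adjusted p = 0.857). At Fatouville the same gene was at 38.9, 35.8 and 32.8 at 350 mg/L and at 40.9, 30.7 and 26.5 at 2500 mg/L, which overlap.

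**Figure D4:**
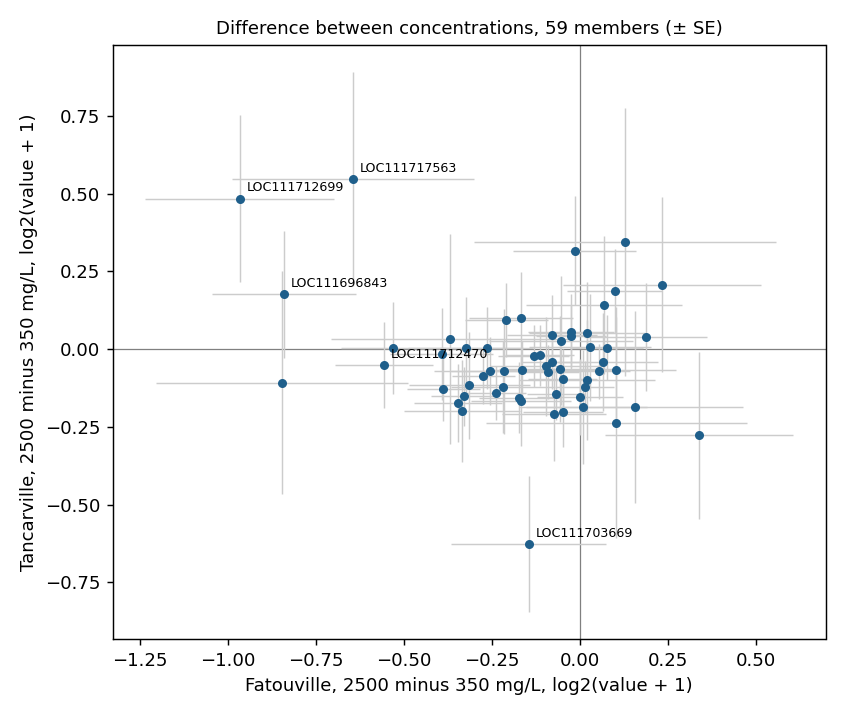
Difference between 2500 and 350 mg/L on the log2(value + 1) scale for the 59 members, at Fatouville (horizontal) and at Tancarville (vertical); lines are standard errors from limma. LOC111712699 lies at -0.97 and 0.48, LOC111696843 at -0.84 and 0.18, and LOC111703669 at -0.15 and -0.63; members called by limma in either comparison number 0.

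The difference of the concentration effect between the sites was tested directly. limma and edgeR called 0 genes for this interaction (0%), and DESeq2 called 1 gene (0.00529%), not a member. An unadjusted limma p below 0.05 was reached by 5 members, all with a more negative difference at Fatouville, and by 7.74% of all tested genes (3.11% in that direction). The smallest p of a member was that of LOC111712699, with an interaction of -1.45 on the log2 scale (SE 0.38, limma adjusted p = 0.630, 0.0995 to 0.911 over 26 alternatives). Its concentrations differed by -0.97 at Fatouville and by 0.48 (SE 0.27) at Tancarville, so the opposite order seen in its values was not called.

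The sites were compared at each concentration. At 350 mg/L limma and edgeR called 0 genes (0%), and DESeq2 called 5 genes (0.0264%) and 0 members. At an unadjusted limma p below 0.05, 3 members were lower at Fatouville and 2 higher, where 4.65% of all tested genes passed and 2.31% were lower. LOC111712699 had the smallest p of a member and was higher at Fatouville by 0.92 on the log2 scale (SE 0.27, limma adjusted p = 0.982), with all 3 Fatouville libraries above all 3 of Tancarville.

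At 2500 mg/L, 46 of 59 members had the lower fitted level at Fatouville, against 49.1% of all tested genes. The median log2 difference was -0.11 over members and 0.01 over all tested genes. limma and edgeR called 0 genes (0%), and DESeq2 called 2 members among 886 genes (4.68%). Before adjustment, 7 members were lower at Fatouville at a limma p below 0.05 and 0 were higher, where 19.6% of all tested genes passed and 8.2% were lower. In 10 members all 3 Fatouville libraries were below all 3 of Tancarville and in 0 above, against 10.85% and 11.97% of all tested genes.

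LOC111715841 had the smallest p of a member for the sites at 2500 mg/L. Its normalised counts were 826, 779 and 839 in Control, 626, 554 and 717 at Fatouville 350 mg/L and 481, 489 and 470.1 at Fatouville 2500 mg/L. At Tancarville they were 724, 773 and 714 at 350 mg/L and 754, 636 and 639 at 2500 mg/L. The 3 Fatouville 2500 mg/L libraries lay below every other library, while the Tancarville libraries came close to the controls, with 773 against a lowest control of 779. At 2500 mg/L the sites differed by -0.49 on the log2 scale (SE 0.10, limma adjusted p = 0.0651, 0.00257 to 0.261 over 26 alternatives). A fit to the 12 exposed libraries alone called it in this comparison, among 306 genes (1.63%). It was the 1 member called for any difference among the 4 exposed groups (limma moderated F, adjusted p = 0.0435), a test that called 212 genes (1.12%) and in which 10 members reached an unadjusted p below 0.05, as did 19.1% of all tested genes. edgeR also called it (adjusted p = 0.0369, 361 genes, 1.91%). That call was lost in 11 of 15 fits that left out 1 library, with limma adjusted p from 0.0178 to 0.237, and was kept when the library omitted was Control 3, replicate 2 of Fatouville 350 mg/L, replicate 1 of Fatouville 2500 mg/L or replicate 3 of Tancarville 2500 mg/L. Without the 3 libraries that stood apart its limma adjusted p was 0.00557.

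Averaged over the sites, limma and edgeR called 0 genes (0%) between 2500 and 350 mg/L, and DESeq2 called 2 members among 923 genes (4.88%). Before adjustment, 10 members were lower at 2500 mg/L at a limma p below 0.05 and 0 were higher, where 18.6% of all tested genes passed and 7.58% were lower. LOC111694701 had the smallest p of a member, at -0.24 on the log2 scale (SE 0.07, limma adjusted p = 0.105). Its normalised counts were 1205, 1375 and 1360.2 at Fatouville 350 mg/L against 1119, 1009 and 1005 at 2500 mg/L, and 1364, 1234 and 1266 at Tancarville 350 mg/L against 1232, 1103 and 1144 at 2500 mg/L. The concentrations did not overlap at either site, but at Tancarville only by 1234 against 1232. The controls were at 1641, 1383 and 1558.

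Averaged over the concentrations, limma and edgeR called 0 genes (0%) between the sites, and DESeq2 called 2 members among 555 genes (2.93%). Before adjustment, 6 members were lower at Fatouville at a limma p below 0.05 and 0 were higher, where 17% of all tested genes passed and 7.59% were lower. LOC111715841 again had the smallest p of a member, with a difference of -0.36 (SE 0.07, limma adjusted p = 0.0895).

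The members did not vary as 1 block across pools. After group means were removed, the correlation of log2 values over the 12 exposed libraries had a median of 0.04 over 1711 pairs of members and of 0.00 over pairs of all tested genes. Of the member pairs, 21 (1.23%) had a correlation of at least 0.8, against 0.974% of pairs of all tested genes. A group of 5 members, chosen after their values were seen, varied together: LOC111712699, LOC111696843, LOC111717563, LOC111712470 and LOC111712343. Their pairwise correlations were 0.59 to 0.97 after group means were removed, with the highest for LOC111712699 and LOC111696843, and 0.50 to 0.91 for the levels. The group had no clear edge among members. LOC111701061, outside it and also named after its values were seen, had correlations of 0.94 with LOC111712343 and 0.79 with LOC111712699 after group means were removed. These are descriptions over 12 libraries that share depth and animals between genes.

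**Figure D5:**
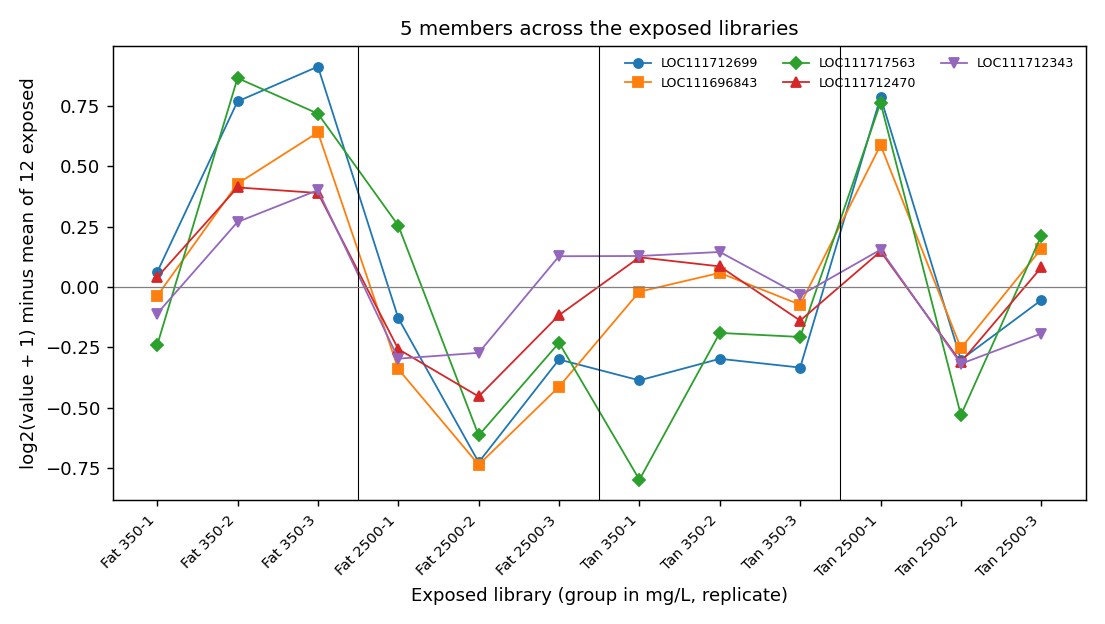
Log2(value + 1) minus the mean of the 12 exposed libraries (vertical) for 5 members in the exposed libraries (horizontal, Fat for Fatouville and Tan for Tancarville, in mg/L); lines join the values of 1 gene and show no order in time. LOC111712699, LOC111696843 and LOC111717563 are above their means in Fatouville 350 mg/L replicates 2 and 3 and in Tancarville 2500 mg/L replicate 1, and below in Fatouville 2500 mg/L replicates 2 and 3.

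Covariation with LOC111712699 was not limited to members. Of the other 18920 tested genes, 62 had a correlation of at least 0.8 with it after group means were removed, and 2 of these were members. At 0.9 or more there were 4 genes, of which LOC111696843 and LOC111717563 were the 2 members.

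Membership of the small-gap genes depended on the scaling of the libraries. Under total counts, TMM and quantile scaling in place of the deposited size factors, 30 of the 59 genes met the condition under all 4 scalings. These included all 18 genes with a gap of at least 5% and 12 of the 41 genes with a smaller one. LOC111695601 and LOC111694701 met the condition under the deposited size factors alone. So did LOC111715057, LOC111698682 and LOC111715536, which are named after their values were seen. The total-count scaling gave 63 genes in all, of which 37 were members, and TMM gave 46, all of them members.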

How the data were processed

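RNA of 15 pools of 30 males was sequenced, and the 3 pools per group are biological replicates per the labels, so p-values measure the spread between pools. The authors deposited a signal per gene and library, the read count over that library's size factor. In each library 100% of values came out as whole reads (tolerance 1e-06). The submitters' processing notes list DESeq2, HTSeq 0.11.2, Salmon and STAR, with no roles. The build, annotation and strandedness were not given in the sources used here. Genes that are near-identical or that overlap may share reads, so their values are uncertain. The table's 15 other columns, Cook's distances with 1 column per library, were not used.

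Members and lists were chosen with earlier results of these data known. The filter on low values (10 or more in 3 or more libraries) left out 4807 genes. limma 3.58.1 (R 4.3.3) was fitted to log2(value + 1), a scale that understates changes of low genes, as a single model of group means in the 15 libraries, with trend and robust moderation, and Benjamini-Hochberg adjustment over 18921 genes (2-sided, threshold 0.05). edgeR 4.0.16 and DESeq2 1.42.0 were run on the recovered reads as alternatives. edgeR called 0 genes in the 7 contrasts among exposed groups and 361 for any difference among them. Only the limma fit was tested on simulated data, and only for the Fatouville concentrations.

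Other alternatives were the pseudocount, the filter, other scalings, a fit to the exposed libraries alone, a replicate block, leaving out each library and, chosen after seeing the data, leaving out the 3 libraries that stood apart. Genes named by rule were the 4 members with the largest ratio of lowest control to highest exposed value, the 2 with the highest control means, the member with the smallest p in each contrast, and 1 gene on either side of the condition. Of the identifiers, 0 could be matched to names, so gene lists, cell type markers, motifs and sequences were not used. Whether replicate numbers pair the pools was checked by correlating deviations from group means. Of 10 pairs of groups, 2 had all 3 correlations above 0.1: the sites at 350 mg/L (0.103, 0.316 and 0.359), and Tancarville 2500 mg/L with the controls (0.186, 0.167 and 0.428). All 3 were negative for the sites at 2500 mg/L (-0.367, -0.321 and -0.406) and for the Tancarville concentrations (-0.531, -0.127 and -0.436). They were also negative for Tancarville 350 mg/L with the controls (-0.0008, -0.163 and -0.026).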

Additional observations from a re-analysis of the deposited data

How the results depend on the processing

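The median log2 ratio of exposed to control means over the 59 members was -0.37 and stayed between -0.40 and -0.35 under the pseudocounts, scalings and omitted controls run. The number of genes meeting the condition was 59, against 95 under quantile scaling (47 shared), 5 with a margin of 1.2 times, and 60 to 290 with 1 library left out, where 135, 223 and 290 belong to Control 1, 2 and 3 and 95 to Tancarville 350 mg/L replicate 3. It was 378 without the 3 libraries that stood apart. A condition over fewer libraries is met more easily by construction. Counts of members called stayed at 0 under the alternatives run for the Tancarville concentrations, the sites at 350 mg/L and the interaction. DESeq2 called 6 members for the Fatouville concentrations, 2 for the sites at 2500 mg/L, 2 for the mean concentrations, 2 for the mean sites and 6 for any difference. It called 5.63%, 4.68%, 4.88%, 2.93% and 8.51% of all tested genes in these comparisons. Without the 3 libraries that stood apart, limma called 2, 1, 0, 1 and 2 in the same order. Shares of all tested genes for that fit are not given here, so these member counts have no background beside them. With Control 3 alone left out, limma called 3.09%, 2.94%, 1.21%, 0.667% and 3.31% of all tested genes in these comparisons. Leaving out 1 library gave 0 to 2 members for the Fatouville concentrations. There was 1 without Control 3, where 3.09% of all tested genes were called. There were 2 without Fatouville 2500 mg/L replicate 1, where 5.86% were called. Such fits gave 0 to 1 members for the sites at 2500 mg/L. There was 1 without Control 3 (2.94% of all tested genes called), Fatouville 350 mg/L replicate 2 (0.976%) or Fatouville 2500 mg/L replicate 1 (5.3%). They gave 0 to 1 for the mean sites. There was 1 without Control 3 (0.667% of all tested genes called), Fatouville 350 mg/L replicate 3 (0.73%) or Fatouville 2500 mg/L replicate 1. They gave 0 to 1 for any difference, with 3.31% of all tested genes called without Control 3. The 12 exposed libraries alone gave 1 member for the sites at 2500 mg/L, LOC111715841. The cause of these changes was not tested. With the replicate number as a block, 0 members were called in the 7 contrasts. LOC111715841 was called for any difference (limma adjusted p = 0.0496), among 188 genes (0.994%). The block thus changed no call of a member, while for the Fatouville concentrations it raised the genes called from 1 to 189 (0.999%). The log2 difference from Control of each member named by rule kept its sign under the alternatives run for it. The choice of members fixes this sign when libraries are left out or the pseudocount is changed, so it is no check of the difference. The uncalled difference of LOC111696843 between the Tancarville concentrations, 0.18, ran from -0.04 to 0.39 over 26 alternatives. At these depths a gap below about 1 normalised count, as in 9 members, is under counting error. Wider gaps are not thereby clear of it, since the 95% counting intervals were apart in only 5 members.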
